A study of Homo sapiens with 6 samples.

Results

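The ovarian and Mullerian lineage markers PAX8, PAX2, WT1, EMX2, SOX17, ESR1, MUC16, MSLN, FOLR1 and WFDC2 were followed in 2 human ovarian cancer cell lines, SKOV3 and A2780s. They were chosen by gene symbol, and every array probe carrying one of these symbols was taken, which gave 15 probes for 10 genes out of 41000 probes and 29123 gene names. By their labels, the SKOV3 clones sh-S1 and sh-S2 carried an shRNA against Hic-5 (TGFB1I1, a focal adhesion scaffold protein), delivered in the pLKO.1-puro lentiviral vector with selection in puromycin, and were compared with a mock Ctrl clone that carried a scramble sequence in that vector. In A2780s cells, the single clone pCMV-Hic-5 expressed a tagged Hic-5 cDNA from the pCMV6 vector and was compared with a Ctrl clone that had received the empty vector. Each clone was hybridized with the Ctrl of its own line on 2 arrays with the dyes Cy3 and Cy5 exchanged, which gave 4 arrays in SKOV3 and 2 in A2780s. Arrays of the same pair of RNAs were 1 replicate, so SKOV3 had 2 replicates, 1 for each clone, and A2780s had 1. Nothing stated that any RNA came from separate cultures of a clone.

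The female reproductive tract arises from the Mullerian duct, whose epithelium depends on the paired-box factors PAX2 and PAX8 and on the homeobox factor EMX2. Secretory cells of the fallopian tube keep PAX8 and SOX17 in the adult, and carcinomas of tubal and ovarian origin commonly retain both. Several surface and secreted products of this epithelium, among them MUC16, MSLN, FOLR1 and WFDC2, are used as tumour markers or drug targets in ovarian cancer.

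The labels of the RNAs were checked first. TGFB1I1 (A_23_P141055) had log2 ratios over the Ctrl of -0.16 and 0.12 in sh-S1 and of -0.12 and 0.28 in sh-S2, a mean of 0.03 ± 0.07 (SD, n = 2) with a limma adjusted p of 0.854. It was therefore not called lower in either RNA labelled as a knockdown, and all directions given for sh-S1 and sh-S2 rest on their labels. In the clone labelled pCMV-Hic-5 it was 10.0-fold higher than in the A2780s Ctrl, with log2 ratios of 4.05 and 2.60. Over all 41000 probes, log2 levels in Cy3 of the libraries labelled sh-S1 and sh-S2 correlated with the A2780s Ctrl at 0.955 and 0.965 and with the SKOV3 Ctrl at 0.933 to 0.941, while the Ctrls of both lines correlated at 0.897 to 0.902. SKOV3 is known for amplification of ERBB2 and loss of CDKN2A. The net Cy3 signal of ERBB2 (A_23_P89249) was 22471 in the SKOV3 Ctrl (mean of 2 arrays), 3484 and 3465 in sh-S1 and sh-S2, 4823 in the A2780s Ctrl and 2926 in pCMV-Hic-5. CDKN2A (A_23_P43490) had a net Cy3 signal of 1895 in the SKOV3 Ctrl, 7240 and 7002 in sh-S1 and sh-S2 and 5196 and 5350 in the A2780s RNAs. GRB7, which neighbours ERBB2, was at 541 to 764 in all RNAs. The ERBB2 signals of both knockdown-labelled RNAs thus lay within those of the A2780s RNAs and the CDKN2A signals above all others. TGFB1I1 itself ran the other way, with a net Cy3 signal of 664 in the SKOV3 Ctrl, 662 and 472 in sh-S1 and sh-S2 and 11374 in the A2780s Ctrl. These values do not settle whether the RNAs labelled as knockdowns came from SKOV3 cells, and a difference within SKOV3 cannot be told apart here from one between lines in any ratio over the SKOV3 Ctrl below. All SKOV3 arrays lay on 1 slide and all A2780s arrays on another, and an effect of the slide cannot be told apart from one of the line. On the SKOV3 slide Cy5 was dim, with a median net signal of 9.52 to 25.5 against 373 to 530 in Cy3, and on the A2780s slide the medians were 325 to 568 in both dyes.

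The probes are 60 bases long, and for several genes the probes read different stretches of the transcript and gave different values, so those stretches are shown. PAX8 on chromosome 2 (hg19, minus strand) was read by A_23_P210001 at chr2:113975025-113975084, from base 2544 of its transcript, and by A_23_P324916 within chr2:113999265-113999605, from base 746, where the span is longer than the probe. WFDC2 on chromosome 20 (plus strand) was read by A_24_P14464 at chr20:44099078-44099137, from base 156, and by A_23_P218675 at chr20:44108669-44108728, from base 338. For ESR1 on chromosome 6 the probe A_24_P383478 at chr6:152129048-152129107 starts at the translation start, written in capitals, and FOLR1 on chromosome 11 was read by A_23_P53176 at chr11:71907268-71907327. Of A_23_P210001 and A_23_P53176 only the first 30 bases are given.
PAX8 A_23_P210001: caagcttccttctttctaacccccagactt
PAX8 A_23_P324916: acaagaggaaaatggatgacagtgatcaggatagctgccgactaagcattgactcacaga
FOLR1 A_23_P53176: ccacagctcccaactatttggttcctgctc
ESR1 A_24_P383478: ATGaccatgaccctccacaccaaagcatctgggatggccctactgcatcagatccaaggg
WFDC2 A_24_P14464: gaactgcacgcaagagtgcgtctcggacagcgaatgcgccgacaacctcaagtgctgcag
WFDC2 A_23_P218675: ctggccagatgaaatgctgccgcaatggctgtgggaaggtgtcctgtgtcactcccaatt

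PAX8, SOX17 and FOLR1 were lower in both RNAs labelled as knockdowns, sh-S1 and sh-S2, than in the SKOV3 Ctrl, each on 4 of 4 arrays. PAX8 had a mean log2 ratio of -3.58, and SOX17 was 7.35-fold and FOLR1 2.48-fold lower, PAX8 and SOX17 on 1 of their 2 probes each. None of the other markers was called in either direction. Of the 15 probes, 10 from 7 genes were bright enough to be tested. Calls needed a limma adjusted p up to 0.05 together with a 2-fold change or more, and 3 member probes were called lower, 0 higher, and 7 were tested and not called. WFDC2 on A_23_P218675 had a mean log2 ratio of 0.41 with an unadjusted limma p of 0.0438 (adjusted 0.110). Its sh-S1 arrays were of opposite sign, and it was not called. Over all 24955 probes tested, 4.16% were called lower and 2.98% higher, with a median log2 ratio of 0.00. The filter let a probe pass through either RNA, so these counts do not describe all members. In such bulk RNA, fewer cells of a type and less RNA per cell cannot be told apart.

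PAX8, the paired-box transcription factor used to mark Mullerian and renal tumours, was read clearly by 1 of its 2 probes. On the probe A_23_P210001 the net Cy3 signal was 40890 and 35802 in the SKOV3 Ctrl, 2131 in sh-S1 and 2217 in sh-S2. The log2 ratios over the Ctrl were -3.52 and -3.74 in sh-S1 and -3.41 and -3.65 in sh-S2, with the clone in Cy5 given first. Both clones were thus low on both arrays, far outside the Ctrl signals, and sh-S1 and sh-S2 differed little. Their mean was -3.58 ± 0.07 (SD, n = 2; 95% interval -3.81 to -3.35), with a limma adjusted p of 2.60e-06. The second PAX8 probe, A_23_P324916, was near background in every RNA. It was well above background in the SKOV3 Ctrl on 2 of 4 arrays, in sh-S1 on 0 of 2 and in sh-S2 on 1 of 2. Its net Cy3 signal was 171 and 158 in the Ctrl, 57.8 in sh-S1 and 77.4 in sh-S2, and it was not tested.

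SOX17, an SRY-box transcription factor of endoderm and of Mullerian epithelium, gave different values on its probes. On A_23_P82775 the net Cy3 signal was 11496 and 9597 in the SKOV3 Ctrl, 354 in sh-S1 and 406 in sh-S2. The log2 ratios were -2.39 and -2.93 in sh-S1 and -2.65 and -3.55 in sh-S2, so that every array was below the 2-fold line. The mean was -2.88 ± 0.31 (SD, n = 2; 95% interval -3.18 to -2.58), with a limma adjusted p of 1.41e-05, and it was -4.05 by the scanner software's processed signals. On A_24_P46946 the net Cy3 signal was 570 and 524 in the Ctrl, 573 in sh-S1 and 621 in sh-S2, both just above the Ctrl signals, while the log2 ratios of -0.09 to 0.27 lay on both sides of 0. Its mean log2 ratio was 0.09 ± 0.00 (SD, n = 2; 95% interval -0.13 to 0.31), with a limma adjusted p of 0.531. Net Cy5 signals of A_24_P46946 on the SKOV3 arrays were 11.9 to 22.6, below the normexp offset, so this interval cannot exclude a larger change. By processed signals its mean was 0.51 ± 0.22 (SD, n = 2; limma adjusted p = 0.0528), not called. The called probe starts at base 1684 of the transcript and holds 24 G or C bases, and the other starts at base 828 of the same transcript and holds 46. For PAX8 the called probe likewise has the later start, though in another transcript (2544 against 746), with 29 G or C bases against 27. The part of probe position or base content in these differences was not tested.

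FOLR1, the folate receptor alpha anchored at the cell surface, was also lower. On its only probe, A_23_P53176, the net Cy3 signal was 8385 and 7272 in the SKOV3 Ctrl, 1782 in sh-S1 and 1684 in sh-S2. The log2 ratios were -1.65 and -1.04 in sh-S1 and -1.51 and -1.04 in sh-S2. The arrays with the clone in Cy5 were the lower ones in both clones, and all 4 were past 2-fold. The mean was -1.31 ± 0.05 (SD, n = 2; 95% interval -1.54 to -1.09), with a limma adjusted p of 0.000113.

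**Figure D1:**
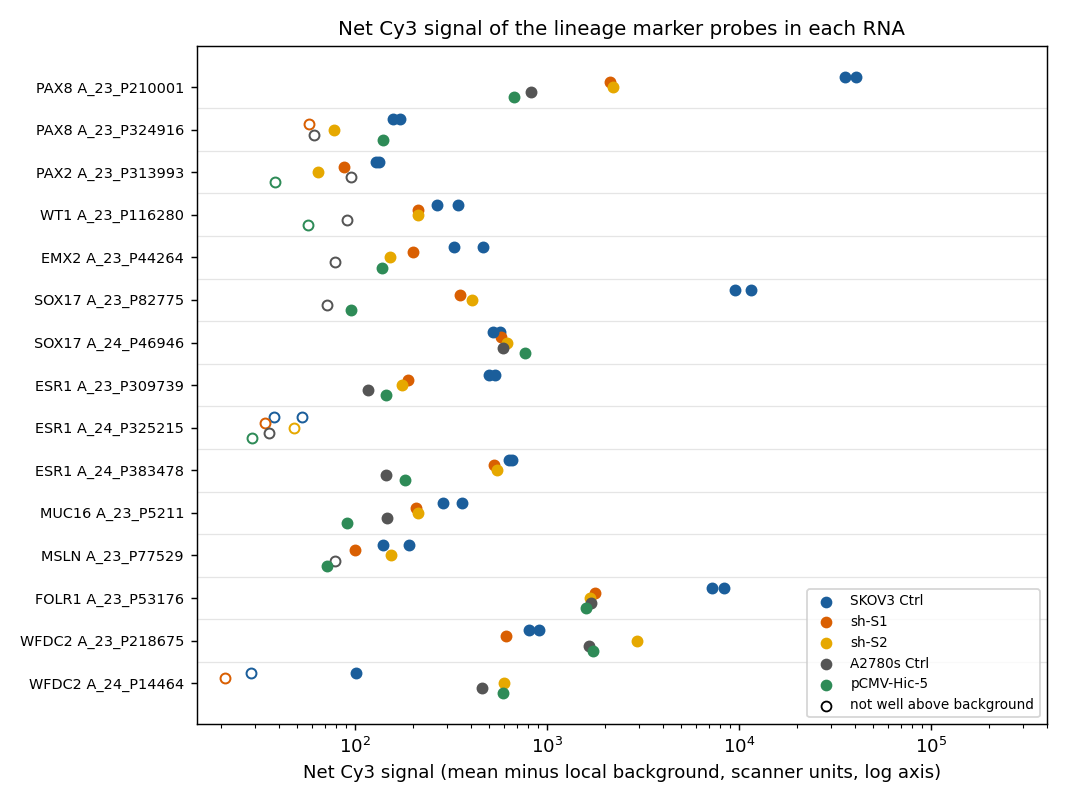
Net Cy3 signal (mean minus local background, scanner units, log axis) of the 15 probes in each RNA, 1 point for each array on which that RNA was in Cy3. Signals are not scaled between arrays and are to be read within a row; the blue points of the SKOV3 Ctrl stand far to the right for PAX8 A_23_P210001 (35802 and 40890), SOX17 A_23_P82775 and FOLR1, and open points were not well above background.

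WFDC2, a secreted whey-acidic-protein family member measured in serum, had higher mean ratios in sh-S2 than in sh-S1, a difference that was not tested. On A_23_P218675 the net Cy3 signal was 804 and 907 in the SKOV3 Ctrl, 610 in sh-S1 and 2949 in sh-S2. The log2 ratios were 0.55 and -0.44 in sh-S1, of opposite sign in the 2 dye orientations, and 1.13 and 0.41 in sh-S2, both above 0. The ratios of the clones thus overlapped. The mean of 0.41 ± 0.50 (SD, n = 2; 95% interval 0.02 to 0.81) had a limma adjusted p of 0.110. On A_24_P14464 the net Cy3 signal was 28.6 and 101 in the Ctrl, 21.1 in sh-S1 and 601 in sh-S2. The mean log2 ratio there was 0.23 ± 0.50 (SD, n = 2), with a limma adjusted p of 0.368. It became 1.53 ± 2.16 (SD, n = 2) by processed signals, with a limma adjusted p of 0.159. With median centring it was 0.78 ± 0.86 (SD, n = 2; limma adjusted p = 0.0396), and neither was called. This probe was not well above background in sh-S1 on either array. Its scaled log2 level was 7.62 in sh-S2 and 5.98 in sh-S1, but these come from different arrays. Over its 4 channels the same SKOV3 Ctrl RNA ranged from 6.05 to 7.58. Against the Ctrl on the same arrays, the mean log2 ratio was -0.13 in sh-S1 and 0.58 in sh-S2. No fold between the clones is therefore given. The SKOV3 Ctrl was well above background on 1 of 4 arrays. The probe thus passed the filter only through sh-S2, where it was high, so its p-values are no support for a change. On both probes sh-S2 was thus the brighter clone, and with 1 RNA for each clone this difference was not tested.

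ESR1, the estrogen receptor alpha, was read by 3 probes. On A_23_P309739, averaged over 10 spots, the log2 ratios were -0.20 and -0.16 in sh-S1 and -0.31 and -0.23 in sh-S2, lower on 4 of 4 arrays. The mean was -0.23 ± 0.07 (SD, n = 2; 95% interval -0.45 to 0.00), with a limma adjusted p of 0.122. Its net Cy3 signal was 501 and 537 in the Ctrl and 188 and 177 in the clones, but the clones were not well above background in Cy5. Calculated from the processed signals of the scanner software, its mean was -1.21 and was called. This probe passed the filter only through the SKOV3 Ctrl, where it was high, and did not pass the strict filter. Its direction, p and call are therefore no support for a change. On A_24_P383478 the mean was -0.17 ± 0.24 (SD, n = 2), with a limma adjusted p of 0.339, and 1 array of sh-S2 at -0.58 stood below the other 3. The third probe, A_24_P325215, was not well above background in any RNA.

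The remaining members showed no called difference between sh-S1 or sh-S2 and the SKOV3 Ctrl. WT1, a zinc-finger factor of the gonadal ridge and a marker of serous carcinoma, had a mean log2 ratio of -0.02 ± 0.05 (SD, n = 2; 95% interval -0.24 to 0.21), with a limma adjusted p of 0.911. MUC16, the very large mucin of the Mullerian surface, had a mean of 0.06 ± 0.12 (SD, n = 2; 95% interval -0.18 to 0.29), with a limma adjusted p of 0.738. Both intervals lie inside 2-fold, but both probes were dim in Cy5. Net Cy5 signals on the SKOV3 arrays were 7.46 to 19.2 for WT1 and 7.42 to 18.7 for MUC16, below the normexp offset. The intervals therefore cannot exclude a larger change. The SKOV3 Ctrl was well above background on 4 of 4 arrays for WT1 and on 2 of 4 for MUC16. By processed signals the means were 0.04 ± 0.11 for WT1 and 0.10 ± 0.60 for MUC16 (SD, n = 2), neither called. PAX2, EMX2 and the mesothelin gene MSLN were not tested. Their net Cy3 signals in the SKOV3 Ctrl were 128 and 133, 327 and 463, and 191 and 139, and 64.3 to 200.1 in the clones.

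**Figure D2:**
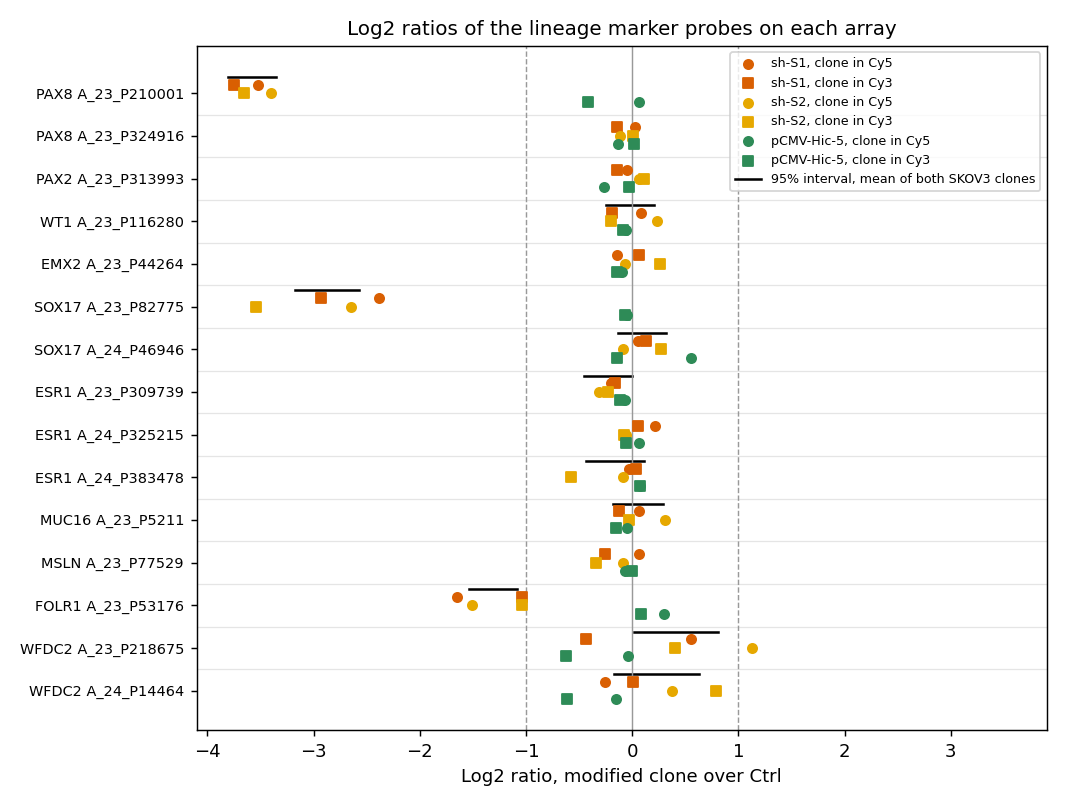
Log2 ratios of modified clone over Ctrl for the 15 probes, with 1 point for each array (circles with the clone in Cy5, squares with the clone in Cy3) and, for the 10 probes tested in SKOV3, the limma 95% interval as a black bar. Dashed lines mark 2-fold; PAX8 A_23_P210001 (mean -3.58), SOX17 A_23_P82775 (-2.88) and FOLR1 (-1.31) lie to their left on all 4 SKOV3 arrays, and no green point of pCMV-Hic-5 lies past 2-fold.

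In A2780s cells, none of the lineage markers passed the fold rule when Hic-5 was overexpressed. Calls needed a mean of 1.5-fold or more over both arrays and 1 direction, and there was no test because the arrays carry 1 pair of RNAs. Of the 15 probes, 8 from 6 genes passed the filter on dim signals and 0 were called in either direction. Over all 30530 probes that passed, 1.32% were called lower and 3.26% higher.

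PAX8 (A_23_P210001) was well above background in both A2780s RNAs, with log2 ratios of 0.06 and -0.42 and a mean of -0.18. FOLR1 was at 0.30 and 0.09. WFDC2 had the lowest values, at -0.04 and -0.62 on A_23_P218675 and at -0.16 and -0.62 on A_24_P14464. On both WFDC2 probes, 1 array was past 1.5-fold, that with pCMV-Hic-5 in Cy3. The SOX17 probe A_24_P46946, not called in SKOV3, was at 0.55 and -0.14, of opposite sign in the dye orientations. ESR1 and MUC16 stayed within 0.15 of 0 on each array. SOX17 on A_23_P82775 was well above background in each A2780s RNA on 1 of 2 arrays, at -0.05 and -0.06, and did not pass the filter.

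The Ctrl clones of both lines differed in several of the same markers. On log2 levels per channel, normalized within arrays by loess and scaled between arrays, 4 of the 10 member probes that passed were more than 2-fold lower in the A2780s Ctrl with no overlap of the arrays, and 1 was higher. Over all 30783 probes, 9.50% were lower and 7.94% higher by that rule. The filter let a probe pass through either Ctrl, so these counts do not describe all members. The higher probe, WFDC2 A_24_P14464, passed only through the A2780s Ctrl. Among the lower ones, SOX17 A_23_P82775 passed only through the SKOV3 Ctrl. The Ctrls are 1 RNA each on different slides, so these values are a description. The SKOV3 Ctrl also stands in the clone ratios above, so both sets of values share it.

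PAX8 (A_23_P210001) had a log2 level of 13.90 in the SKOV3 Ctrl (13.50 to 14.06 over 4 channels) and of 8.86 in the A2780s Ctrl (8.82 to 8.89 over 2), a 33.0-fold difference (-5.05 on the log2 scale) that became -2.74 without scaling between arrays and -5.78 by processed signals. In order, its level was highest in the SKOV3 Ctrl, followed by sh-S1 at 10.39, sh-S2 at 10.25, the A2780s Ctrl and pCMV-Hic-5 at 8.68. The ranges of sh-S1 and sh-S2 overlapped, as did those of the A2780s RNAs, and no other neighbours in that order did. SOX17 (A_23_P82775) stood at 11.50 in the SKOV3 Ctrl, 8.76 in sh-S1, 8.48 in sh-S2, 6.79 in the A2780s Ctrl and 6.73 in pCMV-Hic-5. Both A2780s RNAs were well above background on 1 of 2 arrays there, so no fold is given for them. Their log2 difference of -4.71 between the Ctrls became -3.57 without scaling and -7.82 by processed signals. The neighbours that overlapped were again sh-S1 with sh-S2 and the A2780s RNAs with each other.

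FOLR1 was at 11.20 in the SKOV3 Ctrl, 9.99 in sh-S1, 9.80 in sh-S2, 9.59 in pCMV-Hic-5 and 9.39 in the A2780s Ctrl. The SKOV3 Ctrl did not overlap with any other RNA and was 3.51-fold above the A2780s Ctrl, whereas sh-S2 (9.49 to 10.10) overlapped with sh-S1 and with pCMV-Hic-5 (9.40 to 9.77), and pCMV-Hic-5 with the A2780s Ctrl (9.31 to 9.48). ESR1 on A_24_P383478 was 2.13-fold lower in the A2780s Ctrl (7.31) than in the SKOV3 Ctrl (8.40), and sh-S1 and sh-S2 lay at 8.33 and 8.13, nearer the SKOV3 Ctrl. The ESR1 difference between the Ctrls was -0.98 in Cy3 alone and -0.08 without scaling between arrays, neither of them called.

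WFDC2 ran the other way between the Ctrls. On A_24_P14464 its log2 level was 6.57 in the SKOV3 Ctrl (6.05 to 7.58), 5.98 in sh-S1, 7.62 in sh-S2, 8.24 in pCMV-Hic-5 and 8.63 in the A2780s Ctrl. The SKOV3 Ctrl was well above background there on 1 of 4 arrays and sh-S1 on 0 of 2, so no fold is given and they have no order. The log2 difference of 2.06 between the Ctrls became 3.25 without scaling and 3.91 by processed signals. On A_23_P218675 the A2780s Ctrl was higher by 0.76 (3.04 without scaling and 1.57 by processed signals, both called), and its range of 9.50 to 10.03 overlapped with that of the SKOV3 Ctrl, 8.48 to 9.87. WT1 was lower by 0.77 and MUC16 by 0.32 in the A2780s Ctrl, and neither was called. Without scaling between the arrays, the median probe was higher by 1.66 in the A2780s Ctrl than in the SKOV3 Ctrl, 2.11% of the called probes were lower against 54.5% with scaling, and FOLR1 turned to 0.71 higher.

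**Figure D3:**
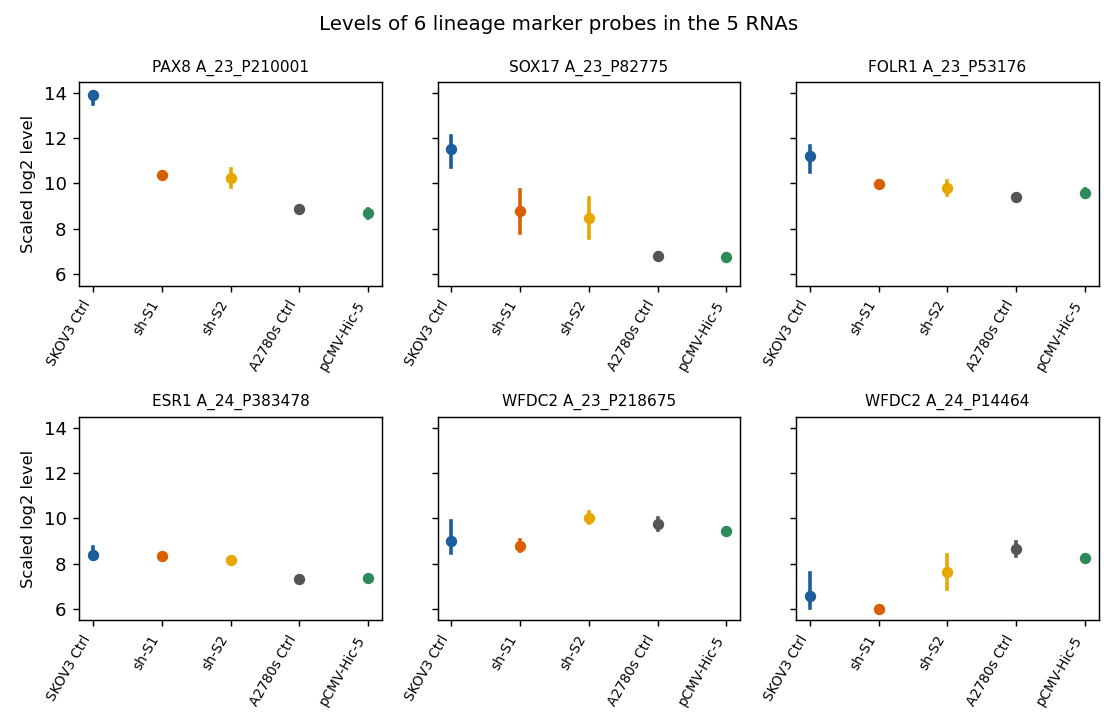
Scaled log2 level of 6 lineage marker probes in the 5 RNAs, as the mean (point) and the range (line) over 4 channels for the SKOV3 Ctrl and over 2 for each other RNA. PAX8, SOX17 and FOLR1 are highest in the SKOV3 Ctrl (13.90, 11.50 and 11.20) and WFDC2 A_24_P14464 is highest in the A2780s Ctrl (8.63); levels are compared within a panel.

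The genes whose levels over the 12 channels were most like those of the called markers were listed by Pearson's r among 29454 probes with a gene name. These channels hold 5 RNAs and are not independent, so r is a description. The levels most like PAX8 were those of HSPA1A, a heat shock protein (r = 0.997), PMEPA1, a transmembrane regulator of SMAD signaling (0.996), and CAPG, an actin-capping protein (0.993). HSPA1A has a near-identical relative, so its probe may read more than 1 gene. For FOLR1 they included ACTN1, an actin crosslinker (0.971), and FOXD2, a forkhead factor (0.970). The brightest SOX17 probe was the one not called, and its nearest genes were JOSD2, SYDE2 and PITX1 (0.971 to 0.979). For the called SOX17 probe, chosen after its values were seen, they were UGT2B7, TNFRSF21 and GFRA1 (0.994 to 0.996).

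Related genes were then read from 10 lists with 111 genes, each by its brightest probe. In sh-S1 and sh-S2, 72 of them were tested, 13 were called lower and 9 higher, and their median log2 ratio was -0.05. All those named here as lower or higher moved the same way on 4 of 4 arrays. The list of Mullerian duct and urogenital development factors had 25 genes, of which 15 were tested, 2 were lower and 4 higher, with a median of 0.13. MECOM, a zinc-finger factor often amplified in ovarian cancer, was at -2.71 (limma adjusted p = 2.96e-05), with another of its 6 probes at -0.05, and LHX1, which is required for the Mullerian duct, was at -1.79 (3.20e-05). The higher genes included the homeobox factors MEIS2 at 2.62, MEIS1 at 1.49 and LHX9, a factor of the early gonad, at 1.43, with limma adjusted p from 1.17e-05 to 0.000170. The other probes of MEIS2 and LHX9 were at 0.61 and 0.19, short of 2-fold. WNT4, WNT7A and WNT9B, ligands of duct formation, were at 0.13, -0.62 and -0.50. WNT7A and WNT9B were lower on 4 of 4 arrays with limma adjusted p of 0.00291 and 0.0275, but by less than 2-fold, so none of the 3 was called. Both passed the filter only through the SKOV3 Ctrl, so these p-values are no support for a change. The net Cy3 signal of WNT9B was 299 in the SKOV3 Ctrl, 1500 in sh-S1 and 286 in sh-S2. HOXA9, HOXA10 and HOXA11, which pattern the duct along its length, were too dim to be tested.

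Among 13 relatives of the members in the PAX, SOX and folate receptor families, 8 were tested, 0 were lower and 1 was higher, with a median of 0.04. PAX9, a paired-box factor of pharyngeal and tooth development, was at 1.60 (limma adjusted p = 0.000151), with its other probe at 0.54. The SKOV3 Ctrl was well above background for it on 3 of 4 arrays. It thus passed the filter only through sh-S1 and sh-S2, where it was high, and its p is no support for a change. SOX7 and SOX18, the closest relatives of SOX17, were at -0.05 and 0.21, and FOLR2 and FOLR3 at 0.15 and -0.34, none of them called. FOLR3 had a limma adjusted p of 0.0335, but it passed the filter only through the SKOV3 Ctrl. Of 16 steroid receptors and estrogen-responsive genes, 12 were tested, 1 was lower and 0 higher, with a median of -0.18. The glucocorticoid receptor gene NR3C1 was at -2.71 (limma adjusted p = 6.22e-06), with another of its 3 probes at -0.18. The progesterone receptor gene PGR was not tested, and the estrogen targets GREB1 and TFF1 were at -0.07 and -0.08.

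Of 23 secreted and surface carcinoma markers, 11 were tested, 4 were lower and 1 higher, with a median of -0.56. The lower ones were SPP1 (osteopontin) at -4.29, the protease inhibitors SLPI at -3.39 and SPINT2 at -2.89 and the keratin KRT7 at -2.20, with limma adjusted p from 2.35e-06 to 6.63e-05. CRABP2, a retinoic acid binding protein, was higher at 1.45 (limma adjusted p = 7.11e-05). In the carcinoma epithelium list, 4 of 6 genes were tested and 4 were lower, with a median of -2.37. These were the keratins KRT18 at -3.53, KRT19 at -2.55, KRT7 and KRT8 at -2.14, and other probes of KRT18 and KRT8 reached 0.01 and -0.38. EPCAM and CDH1, which define epithelium, were too dim to be tested. The net Cy3 signals of the 6 genes summed to 125025 in the SKOV3 Ctrl, 11235 in sh-S1, 14529 in sh-S2, 5016 in the A2780s Ctrl and 7073 in pCMV-Hic-5. The lower signals of PAX8, SOX17 and FOLR1 thus moved with lower keratins, and the part of one in the other was not tested.

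Markers of other cells of the ovary and tube were counted in the same way. In mesothelium, 5 of 5 genes were tested and 0 called, with a median of -0.09, and in ciliated tubal cells 3 of 5 were tested and 0 called, with a median of -0.15. Of 10 genes of granulosa and steroid-producing cells, 5 were tested and 1 was higher, with a median of 0.05. This was FOXL2, the forkhead factor of granulosa cells, at 2.39 (limma adjusted p = 9.08e-06), whereas NR5A1, CYP11A1, CYP17A1 and FSHR were at -0.02 to 0.09 and were not called. Of 6 fibroblast genes, 5 were tested and 1 was higher, with a median of 0.16. COL3A1, a fibrillar collagen gene, was at 3.65 (limma adjusted p = 6.88e-06), with another of its probes at 1.12. It had net Cy3 signals of 1520 in the SKOV3 Ctrl, 24803 and 19480 in sh-S1 and sh-S2 and 24764 and 25602 in the A2780s RNAs, while COL1A1, COL1A2 and DCN were at -0.14, 0.16 and 0.07. PDGFRA was at 0.50, higher on 4 of 4 arrays but short of 2-fold and not called. It passed the filter only through sh-S1 and sh-S2. Of the 6 SKOV3 line markers, 3 were lower and 1 higher, with ERBB2 at -2.28, PGAP3 at -1.32, MIEN1 at -1.10 and CDKN2A at 1.06, the last at 0.58 and not past 2-fold without sh-S1. Other probes of ERBB2 and PGAP3 reached -0.09 and -0.05, and the other probe of CDKN2A had a mean of 1.74.

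**Figure D4:**
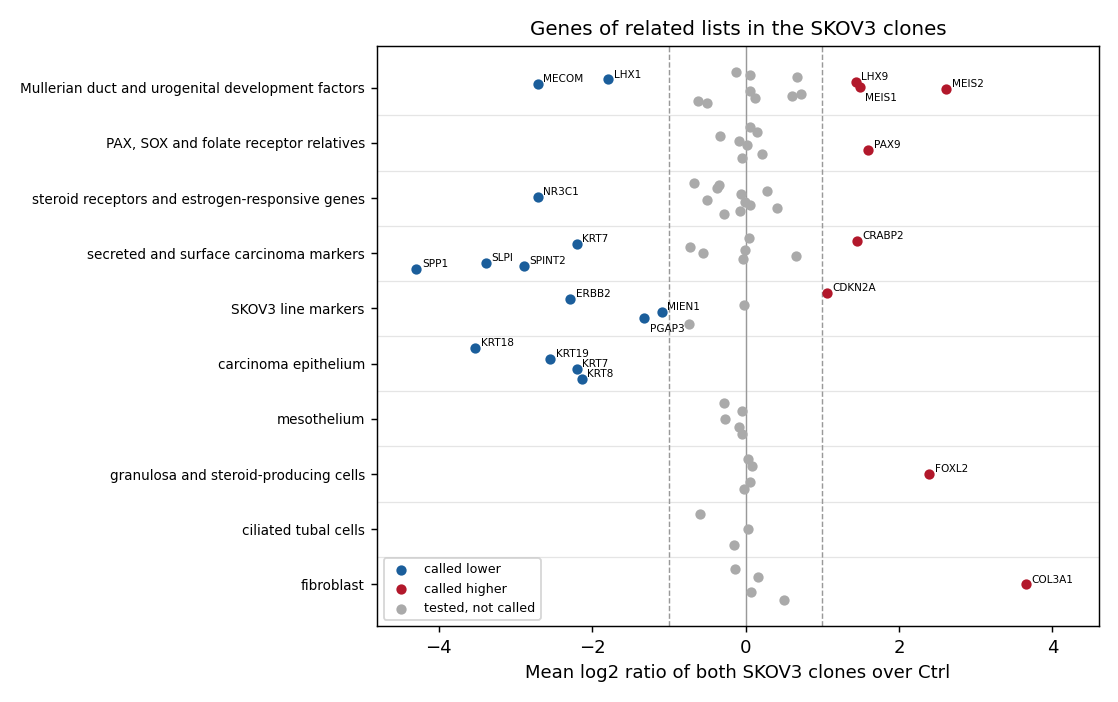
Mean log2 ratio of sh-S1 and sh-S2 over the SKOV3 Ctrl for the tested genes of 10 related lists, 1 point for each gene drawn in a list, by its brightest probe, with KRT7 and EMX1 each in 2 lists and 1 called gene left out. Dashed lines mark 2-fold; the called keratins lie at -3.53 to -2.14, COL3A1, MEIS2 and FOXL2 above 2, and no mesothelium or ciliated cell gene was called.

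In pCMV-Hic-5, 75 of the 111 genes passed, 3 were called lower and 4 higher, with a median log2 ratio of -0.01. The lower ones were SPP1 at -1.94, HOXA13, the most distal of the duct's HOXA genes, at -1.61 and PDGFRA at -0.83. The higher ones were XBP1, a factor of the unfolded protein response, at 1.26, STC2 at 1.04, AMH, the anti-Mullerian hormone gene, at 0.70 and KRT18 at 0.59. These values come from 1 pair of RNAs without a test. KRT18 and AMH lost their call with normexp fitted on all spots (0.56 and 0.49), KRT18 also with the clone in Cy5 alone (0.54) and PDGFRA in Cy3 alone (-0.57), and KRT18 and PDGFRA when each array had to reach 1.5-fold.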

How the data were processed

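The members and all gene lists were chosen with earlier results of these data known. The authors deposited spot intensities from Agilent Feature Extraction (10.7.3.1 per the file headers, 8.5.1.1 per the labels), as mean intensity and local background in Cy3 and Cy5, with log10 ratios of Cy5 over Cy3 from processed intensities, and a series table of the same log10 ratios, not turned on dye-swapped arrays. Background was corrected with limma 3.58.1 in R 4.3.3 by normexp (offset 50), fitted without outlying backgrounds and without 40 spots of 1 A2780s array whose background exceeded 1000. Ratios were normalized by loess, flagged and control spots were dropped, spots of a probe averaged, and ratios turned to clone over Ctrl. Probes entered when flagged as well above background on all Ctrl channels of a line or on both channels of a clone. Dye swaps were averaged, and the 2 SKOV3 clones were compared with 0 by lmFit and eBayes, with Benjamini-Hochberg adjustment over 24955 probes. The Ctrl is a single RNA, and its own spread does not enter that test. Levels per channel were scaled by Aquantile. The rules were tested on simulated data. Named genes were all members, TGFB1I1, the line markers ERBB2, GRB7 and CDKN2A, up to 4 called genes for each list and direction, and the 3 nearest patterns; other listed genes named as not called were picked as examples after their values were seen. Some genes that these rules pick are not reported here. The number of arrays limits the precision.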

Additional observations from a re-analysis of the deposited data

How the results depend on the processing

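PAX8 (A_23_P210001), SOX17 (A_23_P82775) and FOLR1 kept their direction and their call in SKOV3 under the scanner software's processed signals, normexp fitted on all spots, median centring, no filter or a strict filter on dim probes, and either dye orientation alone, with 3 to 4 member probes called lower and 0 higher; SOX17 ranged from -4.05 (processed signals) to -2.52 (clone in Cy5 alone). Without replicate 1 or 2, that is without sh-S1 or sh-S2, 3 were lower, past 2-fold, and of the related genes 13 to 14 were lower and 8 to 11 higher. In A2780s, 2 member probes (both of WFDC2) were past the fold rule with the clone in Cy3 alone. Of the related genes in SKOV3, 21 were lower by processed signals, and 12 to 15 under all other settings. CRABP2 and CDKN2A (0.97 and 0.90, clone in Cy5 alone) and MIEN1 (-0.92, clone in Cy3 alone) lost their call. NR3C1 and PAX9 did not pass the strict filter on dim probes. In A2780s, 6 were lower with the clone in Cy5 alone, and 2 were higher with normexp fitted on all spots. For the Ctrls, 2 member probes were lower and 3 higher without scaling between arrays, where FOLR1 turned to 0.71. By processed signals minus the 75th percentile, 7 were lower and 2 higher. Over all probes, 480 were lower and 22216 higher without scaling and 7042 and 4150 by processed signals, against 2923 and 2443. By processed signals 14 rather than 6 member probes spanned 2-fold over the RNAs. That span was not counted over all probes, so it says nothing of the members in particular. All probes together had a median difference between the Ctrls of 0.06 with scaling, 1.66 without it and -0.22 by processed signals, with 54.5%, 2.11% and 62.9% of the called probes lower. Among all probes, 2355 were called lower and 1964 higher in SKOV3 by processed signals, against 1038 and 743, 1578 were lower with median centring, and 1223 were higher with the clone in Cy3 alone. In A2780s, 693 were lower by processed signals, 214 with the clone in Cy3 alone, 1519 were lower and 1797 higher with the clone in Cy5 alone, and 123 and 495 when each array had to reach 1.5-fold, against 403 and 994. The cause of these differences was not tested. No slide term could be fitted, since each slide held 1 cell line.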
